A study of Gallus gallus with 4 samples.

Results

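The array taken after 4 days in tetracycline was compared with the array taken after 2 days, in conditional knockout cells whose Arp6 was already off on both days. These are 2 of the 4 arrays in the series. The cells derive from DT40, a chicken B cell lymphoma line. In them the ARP6 gene (symbol ACTR6) was disrupted by replacing a run of its exons with histidinol (hisD) and puromycin (puro) resistance cassettes driven by the beta-actin promoter, and Arp6 came from a transgene that tetracycline represses. All 4 arrays share that genotype. The day 0 array had no tetracycline and Arp6 on, and the arrays of days 2, 4 and 6 had tetracycline at 2 ug/ml and Arp6 off. The drug was therefore the same on both sides of the comparison, which differ in days in tetracycline and in days in culture, and these cannot be told apart. Each day had 1 array, no array was taken without tetracycline after day 0, and whether the line was 1 clone is not given in the sources used here. No test between the days is possible. A gene is counted as higher or lower where its signal differed at least 2-fold, and this count carries no error between cultures or arrays.

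Arp6 is a nuclear actin-related protein and a subunit of the SRCAP complex, which exchanges histone H2A for the variant H2A.Z in chromatin. DT40 cells carry the program of a B cell: surface antigen receptor signalling through kinases such as BTK and SYK, transcription factors such as PU.1 (SPI1) and BCL6, and antigen presentation on MHC class II, whose assembly needs the invariant chain CD74. The title of the study concerns the position of chromosome territories in the nucleus. This step of the time course bears on which transcripts differ between an early and a later day with Arp6 switched off. The arrays measure RNA, and the level of Arp6 protein on these days was not tested.

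The targeted gene was already low at day 2 and stayed at that level. Arrays were first scaled to one median over all but dim probe sets. The brighter ACTR6 probe set, used for the gene here, read 7002, 318, 331 and 383 at days 0, 2, 4 and 6. Its log2 ratio of day 4 to day 2 was 0.06. A different ACTR6 probe set, deposited at 8247, 4.49, 29.1 and 7.06, was below background (the 95th percentile of an array's controls to which no transcript was added) on all 3 later days. The knocked-out transcript was thus at a like low level on both sides of the comparison. Where these probe sets lie relative to the replaced exons or the transgene is not given in the sources used here.

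After dim probe sets were left out, 8026 genes could be compared, of 38439 probe sets other than controls. Over all 38439 probe sets the deposited signals had medians of 31.2, 25.6, 31.9 and 28.2 at days 0, 2, 4 and 6. Over the 16658 probe sets kept, the arrays were brought to one median by factors of 0.859, 0.962, 1.02 and 1.19. These factors do not make the medians over all probe sets equal. Background after scaling was 24.9 at day 2 and 32.1 at day 4. It lay below 96.5% of the genes at day 2 and below 95.2% at day 4. Precision is limited by the number of arrays, and in such bulk RNA fewer cells of a type and less RNA per cell cannot be told apart.

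Most genes kept their level between day 2 and day 4. Of the 8026 genes, 79.2% differed by less than 1.5-fold, and the median log2 ratio was 0.0072 with an SD over genes of 0.54. A 2-fold higher signal at day 4 was found for 376 genes, 4.68% of those compared, and a 2-fold lower one for 232 genes, 2.89%. The steps on either side, which share 1 array each with this one, held 194 genes higher and 238 lower from day 0 to day 2 (2.42% and 2.97%), and 397 higher and 504 lower from day 4 to day 6 (4.95% and 6.28%). The excess of higher over lower genes depended on how the arrays were scaled. The counts were 326 higher and 299 lower with no scaling, 250 and 331 with quantile normalization, and 279 and 297 with loess scaling. With the arrays scaled to the spike-in controls, 1027 genes were higher and 91 lower, and the median of all genes moved to 0.46. With no filter on dim probe sets, the arrays were also scaled over all probe sets, and 434 genes were higher and 911 lower.

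The 2-fold differences lay mainly among dim genes. Bright genes, those with a mean signal over the 4 arrays of at least 103 (the 75th percentile of all values), numbered 5429, and 90.6% of them differed by less than 1.5-fold. Of the bright genes, 30 (0.553%) were 2-fold higher and 48 (0.884%) were 2-fold lower. Of the 2597 dimmer genes, 346 (13.3%) were higher and 184 (7.09%) lower. With the genes put into 10 equal bins by brightness, the median log2 ratio was 0.28 in the dimmest bin and -0.01 in the brightest, with an SD over genes of 0.80 and 0.19. Of the 376 higher genes, 166 were below background at day 2, and of the 232 lower genes, 122 were below background at day 4. With the dim side of such genes set to the background of its array, 329 and 170 genes were still at least 2-fold higher and lower. The filter on dim probe sets used the mean over all 4 arrays, day 2 and day 4 included. A dim gene could thus be among those compared through the day on which it was high. The part that background, signal level and this filter had in the counts was not tested, so bright genes are described apart from dim ones below.

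**Figure D1:**
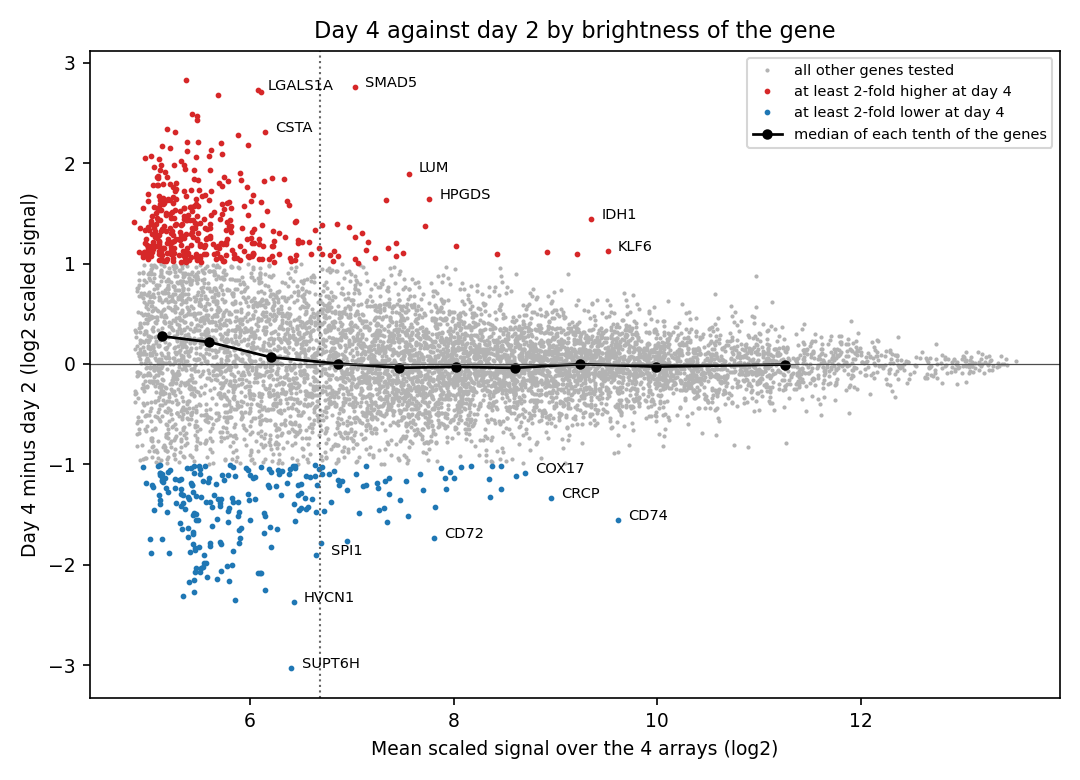
Each point is 1 of the 8026 genes, with its mean scaled signal over the 4 arrays (log2) on the horizontal axis and its log2 ratio of day 4 to day 2 on the vertical axis. Red points are the 376 genes at least 2-fold higher at day 4, blue points the 232 at least 2-fold lower, black points the medians of 10 equal bins of genes, and the dotted line marks a mean signal of 103. Right of that line 30 genes are red and 48 blue, and the medians lie between -0.04 and 0.00 from the fourth bin upward.

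CD74, SPI1 and CD72, known from B cells, were 3 of the 5 bright genes furthest below day 2 at day 4, beside SMIM11 (3.40-fold) and RUBCNL (2.98-fold). CD74, which guards the MHC class II groove until peptide is loaded, read 3110, 1934, 658 and 96.3 at days 0, 2, 4 and 6. It lost signal on every later array, and day 4 was 2.94-fold below day 2. Its other kept probe sets gave log2 ratios of -1.88 and -1.42, against -1.55 for the probe set used. SPI1, the transcription factor PU.1 of B and myeloid cells, read 438, 195, 56.7 and 24.2, and was 3.44-fold lower at day 4 than at day 2, with its other probe set at -1.39. CD72, an inhibitory co-receptor of B cells, read 776, 408, 123 and 64.3, and was 3.32-fold lower, with its other probe set at -0.62. All 3 genes were highest at day 0 and lowest at day 6, where SPI1 was below background. The step from day 2 to day 4 thus lay on a longer descent. BCL6, the transcriptional repressor of germinal centre B cells and a dimmer gene, read 242, 107, 46.0 and 28.6, a log2 ratio of -1.22.

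A pair of lower B cell genes reached background at day 4. HVCN1, the proton channel of B cells and phagocytes, read 287, 152, 29.4 and 43.2 at days 0, 2, 4 and 6, at least 4.75-fold lower at day 4 than at day 2. TLR7, the endosomal sensor of single-stranded RNA, read 148, 79.6, 4.65 and 15.3, at least 2.48-fold lower. Neither was above background again at day 6.

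Of the 34 B cell identity and antigen receptor genes compared, those 5 (HVCN1, TLR7, SPI1, CD72 and BCL6) were 2-fold lower, beside 2.89% of all genes, and 0 were 2-fold higher, beside 4.68%. The list's median log2 ratio lay at -0.26 from that of all genes, and 25 of the 34 lay below the all-gene median. Among its 27 bright members the median lay at -0.19 from that of bright genes. SPI1 and CD72 were the 2 bright members that were 2-fold lower, beside 0.884% of bright genes. None of the 27 was 2-fold higher, beside 0.553% of bright genes and 13.3% of dimmer ones. The absence of higher members is thus near the share of bright genes. The tyrosine kinase BTK, which carries the antigen receptor signal, lay just short of the count at a log2 ratio of -0.97, reading 1166, 651, 333 and 71.3. DOK3, an adaptor that restrains that signal, stood at -0.91, the transcription factor BCL11A at -0.78, the kinase gene PRKCB at -0.77 and the phosphatase gene PTPN6 at -0.62. CD79B, a chain of the antigen receptor, read 2051, 1581, 1116 and 370, a log2 ratio of -0.50. These members were lower without reaching 2-fold.

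Other members of the same list differed little between the days or lay above day 2. The plasma cell and B cell factor gene IRF4 read 3858, 4922, 5348 and 4302 at days 0, 2, 4 and 6, and its log2 ratio of day 4 to day 2 was 0.12. IRF8 stood at 0.13, with 758 at day 0 and 351 and 383 at days 2 and 4, so its lower level was already there at day 2. SYK, the kinase upstream of BTK, stood at 0.19 (its other probe set at -0.70), the B lineage factor PAX5 at 0.29, IKZF1 at -0.05, the plasma cell factor XBP1 at -0.08, the immunoglobulin joining chain JCHAIN at 0.09, and the kinase LYN at -0.08. POU2AF1, a co-activator for octamer factors in B cells, stood at -0.31. The B cell list therefore held lower members beside members near the median of all genes.

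**Figure D2:**
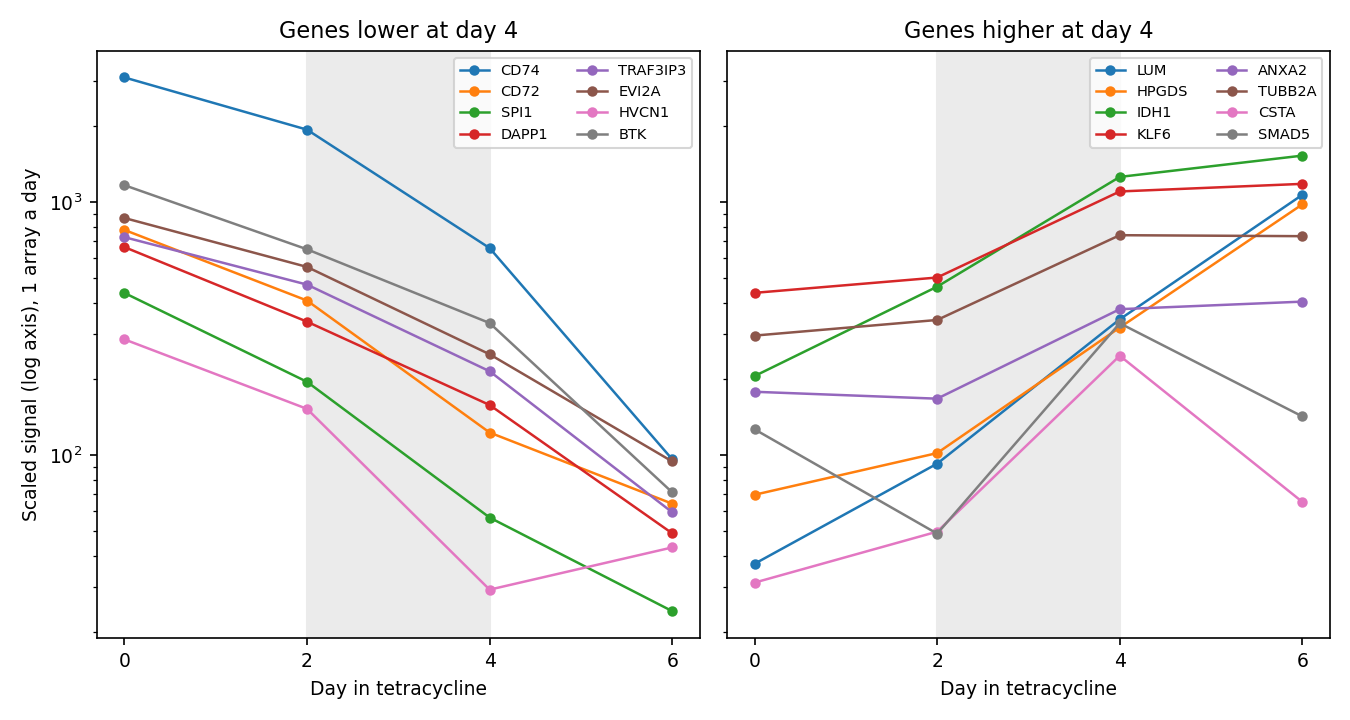
Lines give the scaled signal (log axis) of 8 genes lower and 8 genes higher at day 4 than at day 2, on the arrays of days 0, 2, 4 and 6, 1 array a day, and the grey band marks the step from day 2 to day 4. CD74 passes from 1934 to 658 and SPI1 from 195 to 56.7 across the band, LUM from 92.6 to 344 and IDH1 from 463 to 1258. SMAD5 and CSTA peak at day 4, at 332 and 247.

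Of 11 genes of antigen presentation CD74 alone was 2-fold lower, beside 2.89% of all genes, and 0 were 2-fold higher, beside 4.68%. Of bright genes 0.884% were 2-fold lower and 0.553% higher. In a list of 11 genes a count of 1 or 0 says little against these shares. The list's median lay at -0.31 from that of all genes, with 8 members below the all-gene median and 3 above it. Among its 8 bright members the median lay at -0.18 from that of bright genes. CTSS, the lysosomal protease cathepsin S that trims the invariant chain, read 421, 313, 174 and 29.0 at days 0, 2, 4 and 6, a log2 ratio of -0.84 for day 4 against day 2. The subunits of the RFX complex, which binds MHC class II promoters, stood at -0.78 for RFXAP, -0.77 for RFX5 and -0.37 for RFXANK. RFXAP and RFXANK were highest at day 0, while RFX5 was dim throughout, between 22.5 and 63.6. The thiol reductase IFI30 stood at 0.41 and the MHC class I gene BF2, a dim probe set, at 0.49. With 11 genes, several of them dim, the list's median ranged from -0.31 to -0.0070 over the other ways of processing the arrays.

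Further bright genes that were 2-fold lower at day 4 included 6 described here for their profiles, chosen after their values were seen and not as a list. DAPP1, an adaptor of B cell receptor signalling that binds phosphoinositides, read 664, 337, 158 and 49.1 at days 0, 2, 4 and 6, and was 2.13-fold lower at day 4 than at day 2. TRAF3IP3, which encodes a binding partner of TRAF3, read 727, 472, 215 and 59.4, and was 2.20-fold lower. EVI2A read 866, 555, 250 and 94.4, 2.21-fold lower, with its other probe set at a log2 ratio of -0.35. These 3 genes, like CD74, SPI1 and CD72, descended over all 4 arrays. HCLS1, an actin-binding substrate of LYN in blood cells, read 619, 475, 218 and 369, 2.17-fold lower. Its other probe set stood at 0.00, so the HCLS1 value rests on 1 probe set. RGS18, a regulator of G protein signalling in blood cells, read 288, 223, 81.4 and 107, 2.74-fold lower. CYBC1, a chaperone of the phagocyte NADPH oxidase, read 199, 230, 99.8 and 88.1, 2.30-fold lower by the probe set used and -1.32 on the log2 scale by the other.

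A further 5 bright lower genes were no higher at day 6 than at day 4. CRCP, a subunit of RNA polymerase III, read 973, 906, 358 and 193 at days 0, 2, 4 and 6, and was 2.53-fold lower at day 4 than at day 2. COX17, a copper chaperone for cytochrome oxidase, read 588, 626, 295 and 278, 2.12-fold lower. Both were nearly level from day 0 to day 2, and from day 4 to day 6 COX17 was level again while CRCP was lower still. CDK19, a kinase of the Mediator complex, read 280, 213, 76.0 and 71.6, 2.80-fold lower, with its other probe set at a log2 ratio of -1.51. GART, an enzyme of purine synthesis, read 471, 387, 163 and 116, 2.37-fold lower, and its other probe sets stood at -0.91 and -0.90. PRIM1, the catalytic subunit of DNA primase, read 248, 232, 98.6 and 97.7, 2.35-fold lower. PRIM1 was level from day 0 to day 2 and from day 4 to day 6.

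Some bright genes had their lowest signal at day 4 and were higher again at day 6. MTOR, the growth kinase, read 174, 156, 65.1 and 134 at days 0, 2, 4 and 6, 2.39-fold lower at day 4 than at day 2. Its other probe sets stood at log2 ratios of 0.13 and -1.60, so they disagree. MRPL46, a protein of the mitochondrial ribosome, read 533, 396, 158 and 345, a log2 ratio of -1.32. The octamer-binding factor POU2F1 read 235, 196, 87.5 and 165, 2.24-fold lower. GRAMD4 read 237, 283, 98.9 and 189, 2.86-fold lower. MUTYH, a DNA glycosylase of base excision repair, read 96.5, 164, 63.4 and 153, 2.59-fold lower. In each of these 5 genes the day 6 signal lay closer to day 2 than to day 4 on the log scale, and GRAMD4, MRPL46, MUTYH and POU2F1 had 1 kept probe set each. Among other bright lower genes with a further probe set, KDM4A, a histone H3 demethylase, stood at -1.21 with others at -0.69 and -0.17, and ZBTB10 at -1.25 with others at 0.74 and -0.47.

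LUM, HPGDS and IDH1 were bright genes higher at day 4 and higher again at day 6. LUM, the matrix proteoglycan lumican, read 37.2, 92.6, 344 and 1069 at days 0, 2, 4 and 6, 3.72-fold higher at day 4 than at day 2. HPGDS, which makes prostaglandin D2, read 69.7, 102, 319 and 980, 3.13-fold higher, with its other probe set at a log2 ratio of 1.47. IDH1, the cytosolic isocitrate dehydrogenase that makes NADPH, read 205, 463, 1258 and 1527, 2.72-fold higher. All 3 genes were higher on each later array. STK17A, a serine/threonine kinase, read 62.0, 60.1, 144 and 540, 2.40-fold higher, and the small heat shock gene HSPB9 read 147, 200, 427 and 1132, 2.13-fold higher, with its other probe set at 0.28.

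A further set of bright genes was near level from day 0 to day 2, higher at day 4, and near that level at day 6. KLF6, a zinc finger transcription factor, read 438, 504, 1102 and 1181 at days 0, 2, 4 and 6, 2.19-fold higher at day 4 than at day 2. All 3 of its kept probe sets were past 2-fold, the others at log2 ratios of 1.53 and 1.07. TUBB2A, a beta tubulin, read 297, 342, 740 and 734, 2.16-fold higher. The calcium- and membrane-binding annexin ANXA2 read 178, 167, 377 and 404, 2.26-fold higher, but its other probe sets stood at 1.39 and -1.46. In KLF6 this step held 1.13 of the log2 difference of 1.43 between day 0 and day 6, and in TUBB2A 1.11 of 1.31.

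The aryl hydrocarbon receptor and a known target of it in mammals were both higher. AHR1A, a chicken gene for the aryl hydrocarbon receptor, read 71.0, 55.7, 146 and 208 at days 0, 2, 4 and 6, 2.62-fold higher at day 4 than at day 2. TIPARP, an ADP-ribosyltransferase that in mammals is induced by that receptor and restrains it, read 218, 105, 273 and 318, 2.59-fold higher. Both genes were lowest at day 2 and highest at day 6. GPR183, an oxysterol receptor that guides B cell movement, read 51.3, 120, 264 and 245, 2.20-fold higher. IRS2, an adaptor of the insulin receptor, read 59.0, 81.2, 165 and 206, 2.03-fold higher, with its other probe set at 0.60. PARK2, the ubiquitin ligase parkin, read 67.0, 119, 248 and 253, 2.08-fold higher, with its other probe set at 0.90. PLXNC1, a semaphorin receptor, read 138, 78.6, 243 and 260, 3.09-fold higher, with its other probe set at 1.85. By the probe sets used, all 6 genes had day 6 signals nearer to day 4 than to day 2. The other IRS2 probe set read 43.0, 65.1 and 22.2 at days 2, 4 and 6, and the other PARK2 probe set 54.0, 101 and 66.9. Both were nearer to day 2 at day 6. The other PLXNC1 probe set read 39.9, 144 and 77.0.

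SMAD5 had the highest ratio of any bright gene, by 1 of its 2 kept probe sets. SMAD5, a transducer of bone morphogenetic protein signals, read 127, 49.0, 332 and 142 at days 0, 2, 4 and 6, 6.78-fold higher at day 4 than at day 2. Its other probe set stood at a log2 ratio of 0.17, so the probe sets disagree. The same held for ORMDL1, a regulator of sphingolipid synthesis, 2.63-fold higher by the probe set used and 0.22 and -0.03 on the log2 scale by the others. FOXK2, a forkhead factor, was 2.14-fold higher, with other probe sets between -0.64 and 0.62.

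Below the bright range, the largest differences often came from genes near or below background at day 2. LGALS1A, a galectin that binds beta-galactosides, read 28.6, 27.0, 179 and 151 at days 0, 2, 4 and 6, 6.62-fold higher at day 4 than at day 2. CSTA, the protease inhibitor cystatin A, read 31.3, 49.8, 247 and 65.3, 4.96-fold higher. PLCG1, a phospholipase of receptor signalling, read 17.2, 26.2, 167 and 82.6, 6.39-fold higher. LGALS1A kept its signal at day 6, CSTA was back near day 2, and the other PLCG1 probe set stood at a log2 ratio of 0.01. Of genes below background at day 2, GAB1, an adaptor of growth factor receptors, was at least 5.53-fold higher, the T-box factor TBX1 at least 5.11-fold, the scavenger receptor MARCO at least 4.39-fold, the junction scaffold MAGI1 at least 4.33-fold and the kinase-like RPS6KL1 at least 4.20-fold. GAB1, MARCO and RPS6KL1 were below background again at day 6, where background was 45.9. GAB1 read 56.5, 7.07, 138 and 15.7 at days 0, 2, 4 and 6. Its mean over the 4 arrays, by which it passed the filter, leaned on day 4. HSPG2 (the matrix proteoglycan perlecan), GARRE1, MYLK (myosin light chain kinase), CAPN8, NAA60, LCT and the CASTOR2 gene, listed as GATSL2, were between 3.56-fold and 4.61-fold higher from signals of 24.9 to 47.6 at day 2. The other NAA60 probe set stood at -0.33 and the other LCT probe set at 1.10.

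At the dim lower end, SUPT6H, an elongation factor of RNA polymerase II, read 164, 159, 15.4 and 103 at days 0, 2, 4 and 6, at least 4.95-fold lower at day 4 than at day 2. It was low on the day 4 array alone. RETSAT, a retinol saturase, was at least 4.67-fold lower by 1 probe set, while its other stood at a log2 ratio of 0.03. The RNA-binding protein gene MSI1 was at least 3.76-fold lower, with its other probe set at -0.26, and the adenylate kinase gene AK1 at least 3.68-fold. Among dimmer genes above background on both days, PINLYP read 359, 235, 62.8 and 2.10, 3.74-fold lower, and IFT22, of intraflagellar transport, read 170, 114, 33.0 and 7.01, 3.45-fold lower. ADAR, an RNA-editing deaminase, read 242, 137, 46.2 and 37.7, 2.96-fold lower. PINLYP, IFT22 and ADAR read lower on each later array, but each was below the background of 45.9 at day 6. NAPB, BORCS5 and DOK7 were between 3.08-fold and 3.13-fold lower, with the other NAPB probe set at -0.10.

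A further probe set of the same gene is the 1 repeat of a measurement on these arrays. Of the higher genes, 76 had other kept probe sets, 96 in all, of which 64 (66.7%) were higher too and 22 (22.9%) were 2-fold higher. Among all 5473 other probe sets, 52.2% were higher and 6.27% 2-fold higher. Of the lower genes, 63 had 79 other probe sets, of which 43 (54.4%) were lower and 13 (16.5%) 2-fold lower, against 47.7% and 4.71% of all other probe sets. Of the 96 probe sets 7 were 2-fold the opposite way, beside 4.71% of all other probe sets that were 2-fold lower. Of the 79 probe sets 10 were, beside 6.27% that were 2-fold higher. Opposite 2-fold differences were thus also more frequent than among all other probe sets. For bright genes the same direction was seen in 19 of 25 probe sets of higher genes (76%) and in 18 of 25 of lower genes (72%). More of these probe sets went the same way than among all other probe sets, but most did not reach 2-fold themselves.

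Every kept probe set was at least 2-fold the same way in 14 higher and 11 lower genes with several, leaving out locus-like or clone-like symbols. With such symbols included, 3577 genes had several kept probe sets. These ratios were not bounded at background. The lower ones included CD74, SPI1, CDK19, CYBC1, TTC12, ENKUR, ETFRF1, CAB39L, FAM206A and MEF2C. At day 4 the dimmer probe set of CDK19, TTC12, ENKUR and ETFRF1 was below background. Both probe sets of CAB39L were below it, and CAB39L was at least 1.79-fold lower by the probe set used. MEF2C, a transcription factor of muscle and B cells, read 37.7, 87.7, 31.7 and 88.0 at days 0, 2, 4 and 6. Its ratios were -1.47 and -1.53 on the log2 scale, both with day 4 below background. By the probe set used, MEF2C was low at days 0 and 4 and higher at days 2 and 6. The other probe set read 41.0, 82.8, 28.7 and 8.02, lowest at day 6, so the probe sets disagree on day 6. The higher ones included HPGDS, PLXNC1, KLF6, MAGI1, LCT, MKX, AIPL1, TARP, FA2H and TMEM136-1. At day 2 both probe sets of AIPL1 and TMEM136-1 were below background, as was 1 probe set each of MAGI1, LCT and MKX. LIPA, the acid lipase of the lysosome, read 41.1, 60.3, 140 and 25.5, with log2 ratios of 1.21 and 2.00. SON, a protein of nuclear speckles, read 96.5, 108, 217 and 139, with ratios of 1.00 and 1.23. In both genes the second ratio came from a probe set below background at day 2. By the probe sets used, LIPA and SON were highest at day 4 and lower again at day 6. The other SON probe set read 42.3, 8.48, 45.5 and 72.5, and was highest at day 6.

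Described by gene list, the step was small for most of the machinery of the cell. Of 37 lists, which held 1231 of the genes compared, 3 had a median at least 0.2 from that of all genes on the log2 scale, the size chosen for calling a list shifted. These were the B cell and antigen presentation lists above, and G protein coupled receptors at 0.33. The receptor list held 20 genes with a median signal of 42.5, in the range where all genes leaned higher, and 4 of them were bright. GPR183, SSTR2 and P2RY1 were 2-fold higher and GPR157 2-fold lower, 3 and 1 of 20, near the 13.3% and 7.09% of dimmer genes. CCR6, a chemokine receptor of B cells, read 53.7, 142, 277 and 172 at days 0, 2, 4 and 6, a log2 ratio of 0.97. The receptor median was -2.0e-05 with the floor at background, so that list's shift depends on how dim signals were treated.

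**Figure D3:**
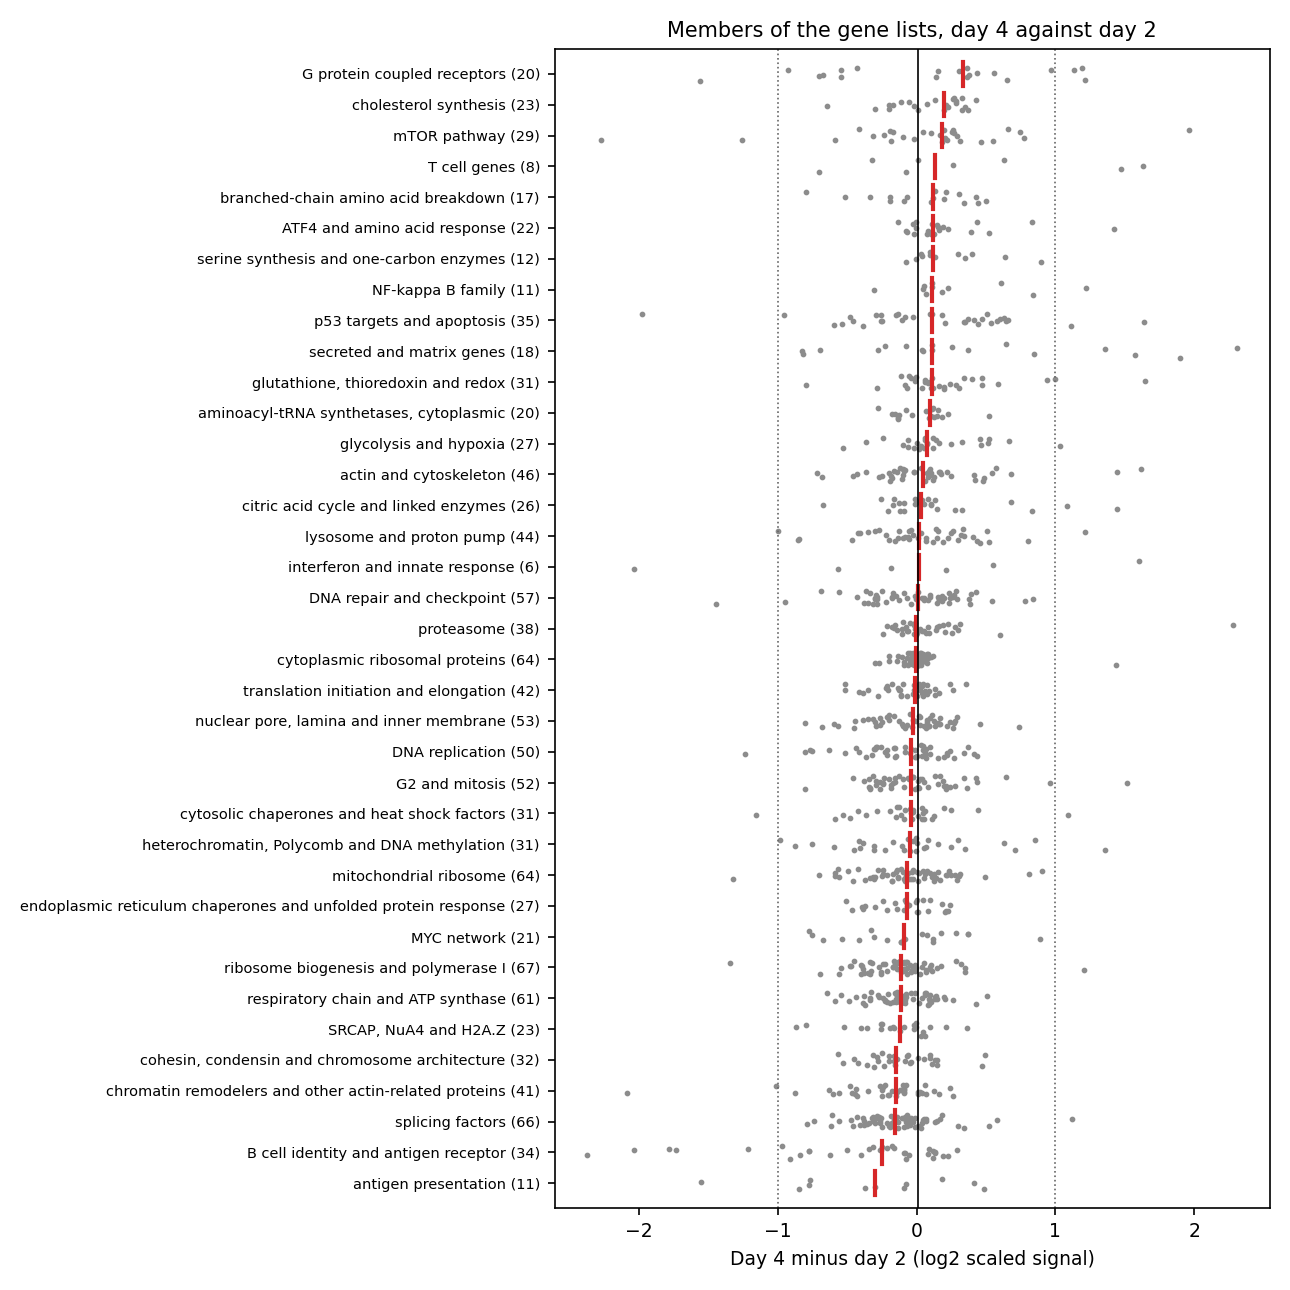
Each grey point is the log2 ratio of day 4 to day 2 of 1 gene in 1 of 37 gene lists, the red bar is the list's median, and the number of genes compared is in parentheses. The solid line is the median of all 8026 genes and the dotted lines mark 2-fold. List medians lie within 0.33 of that line, with antigen presentation lowest and G protein coupled receptors highest.

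Genes of the amino acid response and of serine and one-carbon metabolism showed little difference in this step. CHAC1, a glutathione-degrading enzyme induced by ATF4, read 484, 1523, 1612 and 5197 at days 0, 2, 4 and 6, a log2 ratio of 0.08 for day 4 against day 2. STC2, stanniocalcin, read 8.62, 70.5, 76.1 and 178, a ratio of 0.11. Both were near level across this step and differed more in the steps before and after it. ATF3, a stress-induced factor, was the 1 of 22 members that reached 2-fold, reading 35.2, 52.8, 142 and 227, 2.68-fold higher. GPT2, the mitochondrial alanine aminotransferase, stood at 0.83, SLC7A11, the cystine transporter, at 0.44, and WARS, the tryptophanyl-tRNA synthetase, at 0.52. The ATF4 list's median lay 0.11 above that of all genes. Of 12 serine and one-carbon genes 10 lay above the all-gene median, and 0 reached 2-fold. All 12 were bright, and of bright genes 0.553% were 2-fold higher and 0.884% lower. The 2 serine and one-carbon genes with the highest ratios were MAT1A, an S-adenosylmethionine synthetase, and PSAT1, of serine synthesis. MAT1A stood at 0.90 with 30.7, 89.1, 166 and 573, and PSAT1 at 0.63 with 409, 734, 1138 and 1385.

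Lists of the SRCAP complex and of chromosome structure held few or no 2-fold differences, as did bright genes as a whole. Of bright genes 0.553% were 2-fold higher and 0.884% lower, and 21 of the 23 SRCAP list genes below were bright. So were 31 of the 32 genes of chromosome architecture, so a count of 0 in these 2 lists is near the share of bright genes. Of 23 SRCAP, NuA4 and H2A.Z genes 0 reached 2-fold, 17 lay below the all-gene median, and the list's median lay at -0.13 from it. The lowest were the acetyltransferase KAT5, which read 145, 166, 90.9 and 97.3 at days 0, 2, 4 and 6, a log2 ratio of -0.87, and MRGBP, of the NuA4 complex, at -0.79. H2AFZ, a gene for H2A.Z itself, stood at 0.10, and H2AZ2, another such gene, at -0.36. Of 32 genes of cohesin, condensin and chromosome architecture 0 reached 2-fold, with NCAPG of condensin at -0.57 and SMC3 of cohesin at -0.53, and the median lay at -0.16. Among 41 other chromatin remodelers and actin-related proteins, BRD7 of the PBAF complex read 501, 475, 235 and 277, 2.02-fold lower. ERCC6 was the only other one past 2-fold, at least 2.57-fold lower, but its other probe sets stood at 0.46 and 0.28.

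Lists of RNA and protein synthesis, energy metabolism and the cell cycle lay within 0.2 of the median of all genes. Splicing factors had a median at -0.16, with 50 of 66 below the all-gene median and HNRNPA1 lowest at -0.79 (2676, 3325, 1922 and 2158). Ribosome biogenesis genes lay at -0.12, with 51 of 67 below, and the respiratory chain and ATP synthase at -0.12, with 40 of 61 below. Cytoplasmic ribosomal proteins lay at -0.01 and proteasome subunits at -0.01. The 1 ribosomal protein gene past 2-fold, RPS13, had other probe sets at -0.24 and -0.61, and the proteasome gene PSMB5, at least 3.78-fold higher from below background at day 2, had its other at 0.25. Cholesterol synthesis lay at 0.19, with 0 of 23 genes past 2-fold and NSDHL highest at 0.43. DNA replication and the G2 and mitosis list both lay at -0.05, each with 1 of their 50 and 52 genes past 2-fold, PRIM1 lower and the dim SPC25 higher. Most genes of these lists were bright, and of bright genes 0.553% were 2-fold higher and 0.884% lower. No error between arrays can be set beside these shifts.

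In the NF-kappa B list 10 of 11 genes lay above the all-gene median, and the list's median lay at 0.11 from it. NFKBIA, the inhibitor that NF-kappa B induces, read 203, 139, 211 and 125 at days 0, 2, 4 and 6, a log2 ratio of 0.60, and NFKBIZ read 88.4, 81.4, 145 and 70.8, a ratio of 0.84. NFKB2, the 1 past 2-fold, was at least 2.28-fold higher from a signal below background. NFKBIA and NFKBIZ stood above day 2 at day 4 and were lowest at day 6. Among p53 targets and apoptosis genes, the death receptor FAS was at least 2.43-fold higher and BOK stood at -0.96, with 2 of 35 past 2-fold higher and 1 lower, near the 4.68% and 2.89% of all genes.

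Most other list members past 2-fold were dim, and several were measured above background on 1 of the 2 days only. TSC2, a brake on mTOR signalling, read 6.62, 95.3, 19.7 and 101 at days 0, 2, 4 and 6, at least 2.97-fold lower at day 4 than at day 2. Its signal was below background at days 0 and 4 and above it at days 2 and 6. The mTOR pathway list, which held TSC2 and MTOR, had its median at 0.17 from that of all genes. Of its 29 genes, 18 lay above the all-gene median and 11 below. In it 1 gene was 2-fold higher and 2 were 2-fold lower, beside 4.68% and 2.89% of all genes. The helicase gene DDX18 of ribosome biogenesis was at least 2.52-fold lower, GADD45G, a p53-linked stress gene, at least 2.38-fold (its other probe set at 0.02), FANCD2 of DNA crosslink repair at least 1.65-fold and the small heat shock gene HSPB1 at least 1.35-fold. The actin-binding genes WIPF2 and FLNA were 3.06-fold and 2.71-fold higher, the polymerase I subunit POLR1B 2.31-fold and the oxoglutarate dehydrogenase-like OGDHL 2.12-fold. The Polycomb gene CBX2, the kinase gene PRKCQ and the antiviral gene ZC3HAV1 were at least 2.00-fold, 2.42-fold and 2.37-fold higher. In lists with no member past 2-fold, the members furthest from 0 were RCC1, the exchange factor of the GTPase Ran, at -0.81, ECHS1 of branched-chain amino acid breakdown at -0.80, INSIG2 of cholesterol control at -0.65, EIF4G1 of translation initiation at -0.52, the endoplasmic reticulum chaperone HSP90B1 at -0.51, and MLXIP of the MYC network at 0.89.

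All 12 B cell markers were above background at days 0, 2 and 4 and 10 of them at day 6, where EBF1 and BCL6 were below it. The summed signal of the B cell markers was 14587, 10269, 7270 and 4478 at days 0, 2, 4 and 6. CD74 made 1934 of it at day 2 and 658 at day 4. By the probe sets used, EBF1 (49.3 and 72.9), PAX5, SYK and IRF8 read higher at day 4 than at day 2, and the other markers lower. Of 7 T cell markers 3 were above background at day 2 and 2 at day 4. Their summed signal of 2117 at day 2 and 1362 at day 4 was mostly CD3D, at 2020 and 1238, while CD3E, CD28, LCK and CD4 were below background on both days and ZAP70, above it on both, was higher at day 4 (28.1 and 78.0). Of 8 fibroblast and endothelium markers 2 were above background at day 2 and 5 at day 4, and their sum passed from 221 to 527, of which LUM made 92.6 and 344. The collagen genes COL1A2 and COL3A1 read 3.90 and 12.6 at day 2 and 35.2 and 33.0 at day 4, just above the background of 32.1. In the other direction COL1A1 read 35.8 and 8.05, DCN 21.5 and 1.60 and CDH5 17.2 and 4.54 at days 2 and 4. Beside LUM, the members CSTA, FN1 and SPARC of the list of secreted and matrix genes were 2-fold higher. That is 4 of 18, beside 4.68% of all genes and 13.3% of dimmer genes. The protease inhibitor gene CSTA is counted there as a listed member, and whether its protein was secreted was not tested. Of the 18 genes 7 were bright, and LUM was the 1 bright gene among those 2-fold higher. FN1 was below background at day 2. The macrophage markers above background numbered 2 of 5 at day 2 and 3 of 5 at day 4, and the red cell markers 1 of 2 on both days. These were HBAD at day 2, which read 33.8 and then 18.2, and HBA1 at day 4, which read 1.93 and then 85.8. The part of other cell types in these values was not tested.

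The ratio of day 6 to day 0 shares no array with this step and gives the whole course beside it. In that ratio 681 genes (8.48%) were 2-fold higher and 670 (8.35%) lower, and among bright genes 229 (4.22%) and 330 (6.08%). Of the 30 bright genes higher at day 4 than at day 2, 14 (46.7%) were also higher at day 6 than at day 0, which is 6.11% of the 229, and 1 was lower. Of the 48 bright genes lower at day 4, 28 (58.3%) were lower at day 6 than at day 0, which is 8.48% of the 330, and 1 was higher. Over all genes 98 of the 376 (26.1%, and 14.4% of the 681) were higher in both, and 71 of the 232 (30.6%, and 10.6% of the 670) were lower in both. Of the 376, 24 (6.38%) were lower at day 6 than at day 0, beside 8.35% of all genes. Of the 232, 28 (12.1%) were higher, beside 8.48% of all genes. For genes lower at day 4 the opposite direction was thus also more frequent than among all genes. As a share of the genes that differed in this step, the overlap was thus larger for bright genes than for all genes. As a share of the genes that differed between day 0 and day 6 it was smaller for bright genes, at 6.11% and 8.48% against 14.4% and 10.6%. Genes 2-fold different in this step were thus a small part of those 2-fold different between day 0 and day 6. These shares do not measure how much of the whole course fell in this step. A gene can pass 2-fold over the course without passing it here, as did BTK, at log2 ratios of -4.03 and -0.97.

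**Figure D4:**
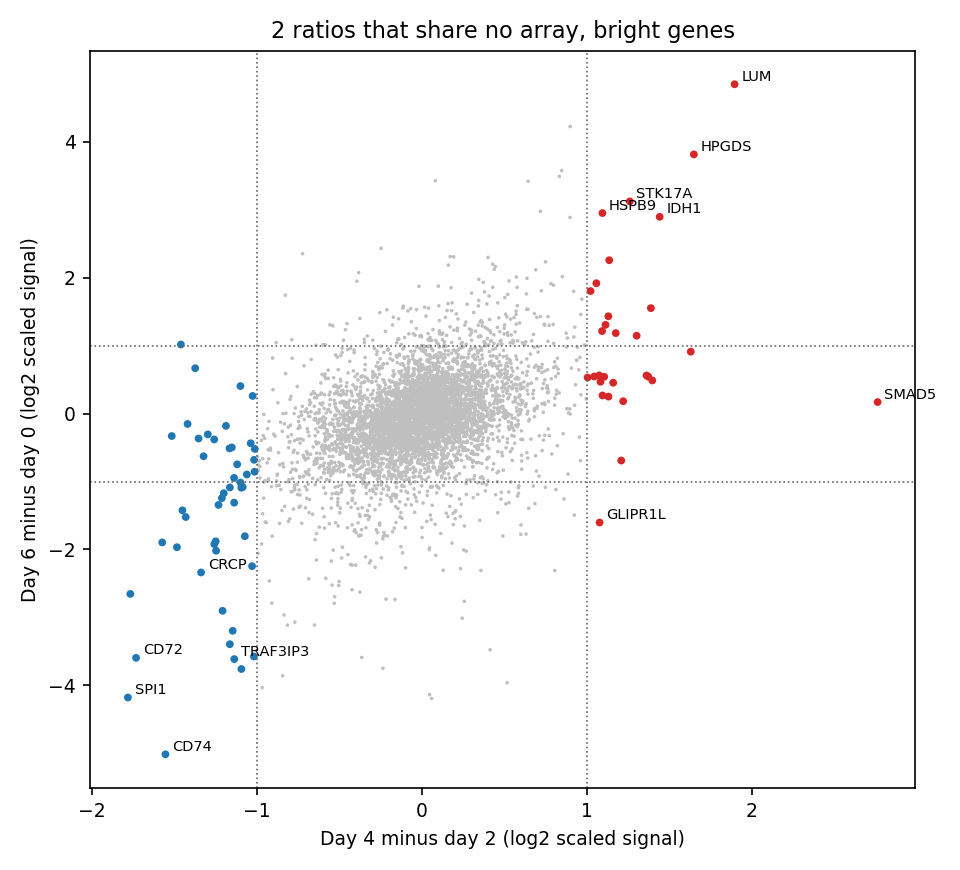
Each point is a bright gene, with its log2 ratio of day 4 to day 2 on the horizontal axis and of day 6 to day 0, from the other 2 arrays, on the vertical axis, and dotted lines mark 2-fold. Red points are the 30 genes at least 2-fold higher at day 4 and blue points the 48 lower. Of the red points 14 lie above the upper horizontal line and 1 below the lower one, and of the blue points 28 lie below the lower line and 1 above the upper.

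By chromosome the step showed no shift of the size used for the lists. Of the compared genes 8009 were placed on a chromosome of assembly GRCg7b, and 31 chromosomes held at least 20 of them. Their medians lay between -0.10 (chromosome 22) and 0.18 (chromosome 30, with 22 genes) from that of all genes, and 0 reached 0.2. The macrochromosomes (1 to 5) lay at 0.01 with 3465 genes, the intermediate ones (6 to 10) at 0.03 with 1277, the microchromosomes at -0.02 with 2919 and the Z chromosome at 0.05 with 337.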

How the data were processed

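Per the labels' protocols, polyadenylated RNA of the DT40 cells was turned into biotinylated cRNA for the Affymetrix chicken array. For each probe set the authors deposited 1 linear intensity an array, which the series' design text attributes to GeneChip Operating Software. How that signal was computed or scaled is not given in the sources used here. No scanner files were used.

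The array's 96 control probe sets, of 38535, were set aside. A filter on the mean log2 intensity over the 4 arrays, at the median of all values (signal 29.1), left 16658. Each array was scaled to the same median over these, and signals below the 40th percentile, 19.4, were set to that floor before taking log2 ratios. Background was the 95th percentile of 59 controls other than the 27 spike-in probe sets, and a ratio from below it is given as "at least" against it. Names came from the platform annotation: 27168 probe sets had 1 symbol, 177 several (not named) and 11094 were not listed. Each of the 8026 genes is represented by its brightest probe set (by mean over the arrays), and the RefSeq table of GRCg7b held 8024 of their symbols. Some list members were matched through older or other symbols, such as SH2D6 for BLNK, KIF4B for KIF4A and BIRC8 for XIAP. Such a symbol may name a related gene of the same family.

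Genes were named by this rule: each ACTR6 probe set; the 12 highest and 12 lowest ratios above background on both days; the 5 largest bounds in each direction; the 10 genes in each direction whose probe sets all passed 2-fold; and for each list the 3 members furthest from 0 among those past 2-fold, or else the 1 furthest. The comparison, the lists and the members were chosen with earlier results of these data known. The split at the 75th percentile, the other bright and list genes named, the background controls and the older or other symbols were chosen after the values were seen. The control set was chosen after a smaller one had given other levels than an earlier analysis of these arrays. No p-value is given, as each day has 1 array. The counting step was tested on simulated data with the same noise for all probe sets and with differences planted in brighter genes. That test does not bear on how reliable the counts of dim genes are. The software was Python 3.11.15 with numpy 2.4.6, pandas 2.3.3, statsmodels 0.14.6 (loess, span 0.4) and matplotlib 3.10.9.

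The alternatives were other scalings (none, 75th percentile, quantile, loess, spike-in), filters, floors, fold thresholds and ways to join probe sets.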

Additional observations from a re-analysis of the deposited data

How the results depend on the processing

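The counts of genes higher and lower at day 4 were 376 and 232. With 12 alternatives tried for each of the 141 named genes past 2-fold, 136 kept their direction in every one that gave a value. This was largely fixed in advance. The genes were past 2-fold to begin with, and several scalings move all genes by one amount smaller than that. The kept direction therefore does not measure how reliable a gene's ratio is. In every one that gave a value 44 stayed past 2-fold, but not all 44 had a value in all 12. Genes left out by a stricter filter gave no value there, and SUPT6H, GAB1 and TBX1, among the 44, had values in 10. The counts higher and lower were 1027 and 91 with spike-in scaling, 31 and 48 with the 75th percentile filter, 216 and 111 for genes above background on both arrays, 144 and 113 with a floor at the 60th percentile, 96 and 58 at 3-fold, 950 and 716 at 1.5-fold, and 719 and 490 over every kept probe set. With the 75th percentile filter and loess scaling together, an alternative added after seeing the data, they were 32 and 47. Quantile normalization gave 250 higher, a floor at background 243 higher, and no filter 911 lower. The genes shared with day 6 against day 0 numbered 98 higher and 71 lower in both. They were 45 and 137 with no scaling, 313 and 26 with spike-in scaling, 59 and 298 with no filter, 14 and 27 with the 75th percentile filter, 13 and 16 at 3-fold and 386 and 294 at 1.5-fold. Those higher in both were 59 with quantile normalization, 62 above background, 27 with the 60th percentile floor and 51 with the floor at background. ERCC6 reversed to 0.069 with quantile normalization and to 0.28 above background, GADD45G to 0.022 above background, and the G protein coupled receptor list to -2.0e-05 with the floor at background. The background filter puts another probe set of ERCC6 and of GADD45G in use, and for the other reversals the cause was not tested. Of the 3 lists called, 2 kept their direction in all alternatives and 0 stayed past 0.2 in all, with B cell identity between -0.40 and -0.19 and antigen presentation between -0.31 and -0.0070. No paired analysis was possible because each day has 1 array and the labels give no replicate numbers. The closeness of dim signals to background and the lack of a repeat array limit every ratio.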
